A study of Zea mays with 18 samples.

Results

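The miR396 family was followed in leaf 4 of maize seedlings. It was taken as every probe set of the deposited table whose miRNA name starts with zma-miR396, whichever arm of the precursor the name gives. These are 12 of 228 probe sets. Probe sets with identical values were counted once as a profile, which leaves 7 of 147 profiles: miR396c/d (zma-miR396c and zma-miR396d), miR396g-5p/h (zma-miR396g-5p and zma-miR396h), miR396a/b-5p, miR396e/f-5p, miR396a/b-3p, miR396e-3p and miR396g-3p. A slash joins miRNAs whose values are the same in every column, so the array gave no separate reading of them. Levels were measured on 18 arrays of total RNA from the hybrid ADA313, in 6 groups of 3 biological replicates. Control seedlings had days of 16 h at 25 °C and nights of 8 h at 20 °C, under 15000 lux and 70% relative humidity, and chilled seedlings differed in having nights at 4 °C. Each treatment was sampled in 3 leaf zones, the meristem with dividing cells, the elongation zone with expanding cells and the mature zone with grown cells. The labels do not state the length of the chilling, the borders of the zones, or whether a replicate pooled seedlings. The table holds miRNAs only, so the zones could not be checked against marker genes.

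MiR396 is a conserved plant miRNA family. Its 5p arm guides cleavage of transcripts of growth-regulating factors (GRFs), transcription factors that act with GIF coactivators to keep leaf cells dividing. In Arabidopsis miR396 accumulates away from the leaf base as cells leave the division zone and restricts GRF activity there, and in maize GRF activity is tied to the size of the leaf division zone. The 3p arm is the partner strand of the precursor and is usually less abundant in plants. GRF transcripts were not measured here.

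For each profile the authors deposited 1 average log2 signal per group and the p-value of an ANOVA over the 6 groups, so no single-array value can be shown. The residual SD was recovered from that p-value. Contrasts between averages were tested with limma's moderated test, adjusted over all 228 probe sets by the Benjamini-Hochberg method, and a profile was called at an adjusted p under 0.05. Every SE and 95% interval of a difference comes from this recovered SD. The averages of the table ran from 0.59 to 12.65, and 41 of 147 profiles never reached a log2 signal of 2 in any group. The recovered SD had a median of 0.34 over profiles. Levels of different probe sets are signals on one log2 scale but are not abundances, because probes differ in affinity. Bulk tissue was used, so fewer cells with a miRNA cannot be told apart from less of it per cell. The labels do not say whether the replicates came from separate plantings, and p-values measure only the spread between the arrays.

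MiR396c/d carried the widest gradient of the family. Under control nights the average log2 signal of zma-miR396c and zma-miR396d was 3.70 in meristem, 11.31 in expanding and 11.80 in mature tissue. Under chilled nights these zones averaged 6.70, 11.26 and 11.41. Both meristems lay below the other 4 groups, which were high and close together. Its range of 8.10 was the 3rd widest of 147 profiles, against a median range of 1.73. Its recovered SD of 0.77 was larger than that of 126 other profiles, so its differences carry a wide error. In the authors' deposited table its ANOVA p was 5.68e-08, with an FDR p of 1.1e-05.

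The profiles with 5p in their names stayed near the bottom of the signal scale. The names zma-miR396c, zma-miR396d and zma-miR396h give no arm. MiR396g-5p/h had averages of 1.15, 1.97 and 1.45 in control meristem, elongation zone and mature zone, and 1.25, 2.54 and 1.35 in the chilled zones. MiR396a/b-5p had averages of 1.36, 2.48 and 2.05 along the control leaf and 1.31, 2.94 and 1.93 along the chilled leaf. As deposited, both profiles averaged highest in the elongation zone under both treatments. The control step of miR396a/b-5p from elongation to mature zone (-0.43) was not called (adjusted p = 0.235 by limma's moderated test). Under all 3 scalings given further on, the mature zone lay above the elongation zone for both profiles and treatments. MiR396e/f-5p had averages of 0.90, 1.24 and 1.41 along the control leaf and 1.00, 1.57 and 1.71 along the chilled leaf, which ascend from meristem to mature zone and stay under 2 throughout. The recovered SDs were 0.14, 0.36 and 0.21 in the order named. In the authors' deposited table the FDR p was 2.6e-05 for miR396g-5p/h, 0.003904 for miR396a/b-5p and 0.010307 for miR396e/f-5p.

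The 3p profiles differed in level and in shape. MiR396e-3p was high in every group, with averages of 10.84, 11.09 and 9.79 along the control leaf and 11.12, 10.51 and 10.38 along the chilled leaf. MiR396g-3p was low and lowest in mature tissue, with averages of 2.61, 2.45 and 1.06 along the control leaf and 3.23, 2.37 and 0.72 along the chilled leaf. MiR396a/b-3p had averages of 2.15, 5.74 and 4.88 along the control leaf and 4.06, 5.92 and 3.51 along the chilled leaf. Its recovered SD of 1.29 exceeded that of 140 other profiles, and its FDR p of 0.057117 in the authors' deposited table made it the 1 profile of the 7 above 0.05. The other 6 were under that limit.

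**Figure D1:**
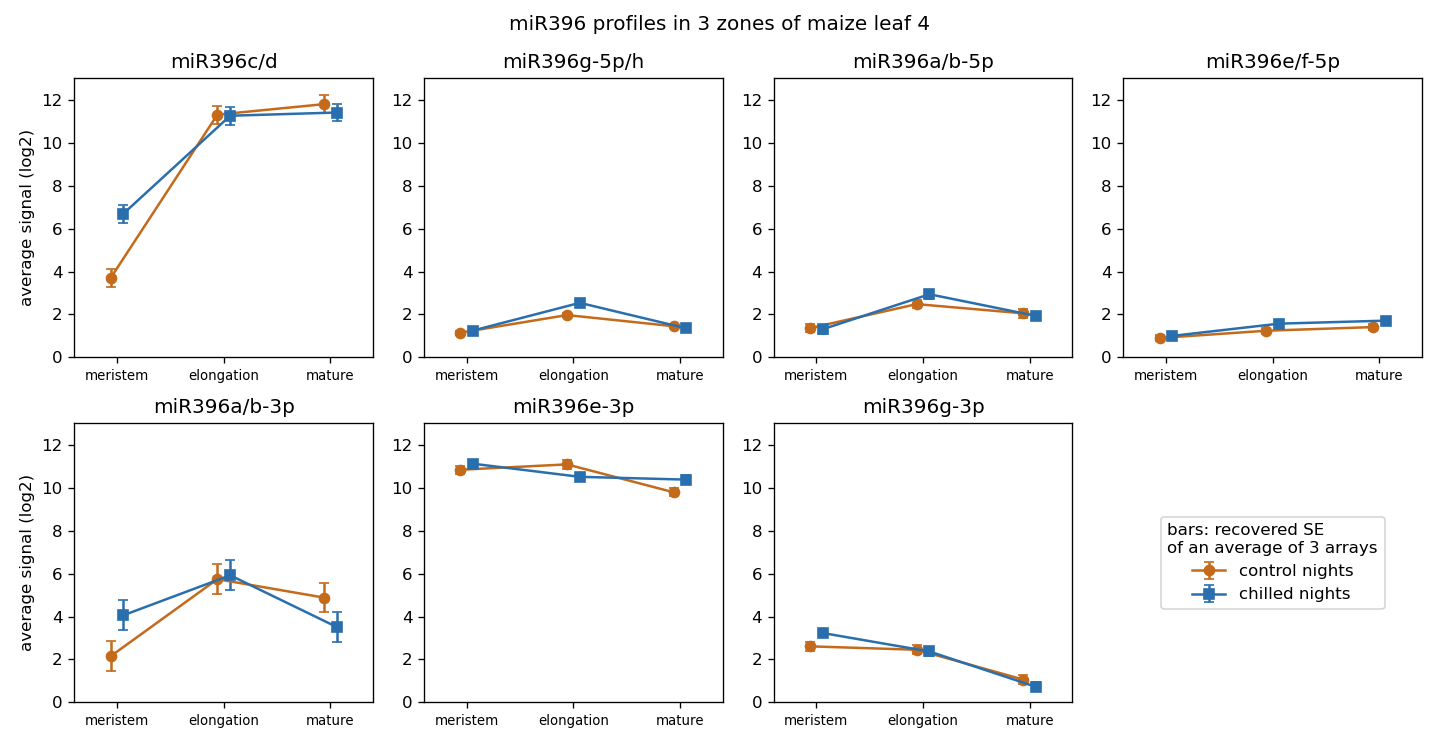
Average log2 signal of the 7 miR396 profiles by leaf zone, for control nights (circles) and chilled nights (squares), with bars of 1 recovered SE of an average of 3 arrays. MiR396c/d stands at 3.70 and 6.70 in the meristems and between 11.26 and 11.80 elsewhere, and miR396e-3p lies between 9.79 and 11.12 in all groups.

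Neighbouring levels in the order of the 6 groups were compared pairwise. For miR396c/d the control meristem lay below the chilled meristem (adjusted p = 0.0126), and the chilled meristem lay below the chilled elongation zone by 4.56 (adjusted p = 2.92e-05). Its 4 higher groups were ordered chilled elongation zone, control elongation zone, chilled mature zone and control mature zone, with no step that passed (adjusted p from 0.758 to 0.957). For miR396g-5p/h the step from the control mature to the control elongation zone passed (0.52, adjusted p = 0.00830), and this step turned under all 3 scalings given further on. For miR396g-3p the step from the control mature to the chilled elongation zone passed (1.31, adjusted p = 0.00240). No neighbouring pair of miR396a/b-5p, miR396e/f-5p, miR396e-3p or miR396a/b-3p passed under limma, and none of their steps had an unadjusted p under 0.05 except that between the 2 mature zones for miR396e-3p (0.59, unadjusted p = 0.0492).

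Chilled and control leaves were compared in each zone, to ask which miRNAs of growing tissue respond to cold nights. In the meristem miR396c/d rose from 3.70 to 6.70. The difference of 3.00 (SE 0.59, adjusted p = 0.0126) is an 8-fold higher signal, with a 95% interval from 3.33-fold to 19.2-fold. This was the 1 miR396 profile of 7 called in the meristem, where 2.04% of all profiles were called as higher and 3.4% as lower. It was the largest difference of the 147 profiles in that comparison, in which the median change over all probe sets was -0.05. The next largest, that of miR398a-5p, was close to it at 2.96. By p-value under limma miR396c/d ranked 2nd. The call held under all 13 alternatives tried (differences from 2.895 to 3.135, highest adjusted p = 0.0488 with the recovered SD enlarged).

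None of the other 6 profiles was called in the chilled meristem under limma, and none of the 6 had an unadjusted p under 0.05. MiR396a/b-3p averaged 2.15 in control and 4.06 in chilled meristems, a difference of 1.91 with a 95% interval from -0.19 to 4.01 (adjusted p = 0.334). MiR396g-3p averaged 2.61 and 3.23, a difference of 0.62 with an interval from -0.00025 to 1.24 (adjusted p = 0.326). The differences of miR396g-5p/h and miR396e/f-5p were 0.10 each, that of miR396a/b-5p was -0.05 and that of miR396e-3p was 0.28, with intervals that together ran from -0.66 to 0.87. A change of the size seen for miR396c/d lay outside the intervals of these profiles except that of miR396a/b-3p. However, miR396g-5p/h, miR396a/b-5p and miR396e/f-5p averaged only 0.90 to 1.36 in the meristems, near the lowest average of the table (0.59). Whether such signals are background was not tested, so their intervals cover the signal and do not exclude a change of the miRNA.

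In the elongation zone no miR396 profile was called under limma, against 1.36% of all profiles. MiR396g-5p/h had an unadjusted p under 0.05, the only one of the 7. It averaged 1.97 in control and 2.54 in chilled leaves, a difference of 0.57 (SE 0.14, 95% interval from 0.27 to 0.87, adjusted p = 0.0576), and it passed under 7 of 13 alternatives. Its difference was 0.07 with quantile normalization. MiR396c/d averaged 11.31 and 11.26, with a 95% interval of the difference from -1.31 to 1.21. The differences of the other 5 profiles ran from -0.58 for miR396e-3p to 0.46 for miR396a/b-5p.

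In the mature zone no miR396 profile was called under limma either, against 14.3% of all profiles. MiR396e-3p averaged 9.79 in control and 10.38 in chilled leaves, the only one of the 7 with an unadjusted p under 0.05 (0.59, SE 0.27, adjusted p = 0.244). MiR396c/d averaged 11.80 and 11.41, with a 95% interval of the difference from -1.65 to 0.87. MiR396a/b-3p averaged 4.88 and 3.51, a difference of -1.37 with an interval from -3.47 to 0.73 (adjusted p = 0.551). These counts depended on the scaling. With quantile normalization 2 of the 7 profiles were called, and with the group medians over probe sets subtracted 6 were called as higher in the chilled mature zone. Among all probe sets 10 were called as higher and 22 as lower as deposited, and 28 and 22 with quantile normalization. These counts were 204 and 0 with the group medians over probe sets subtracted. The difference between those medians was -2.405, while the median of the single differences was 0.

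**Figure D2:**
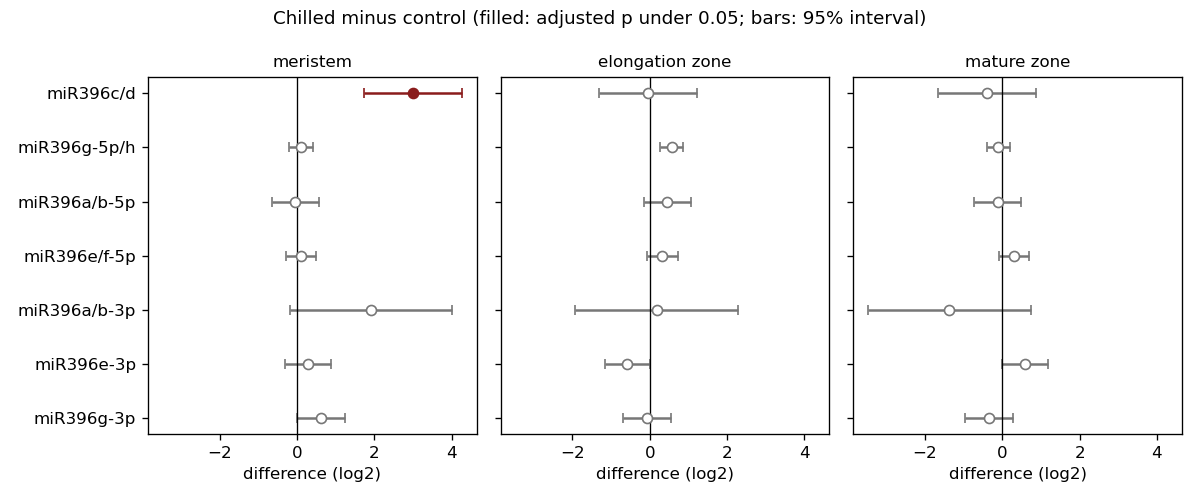
Difference between chilled and control leaves (log2) for the 7 miR396 profiles in each zone, with 95% intervals, filled where the adjusted p was under 0.05. The 1 filled point is miR396c/d in the meristem at 3.00, and the same profile lies at -0.05 and -0.39 in the other zones.

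**Figure D3:**
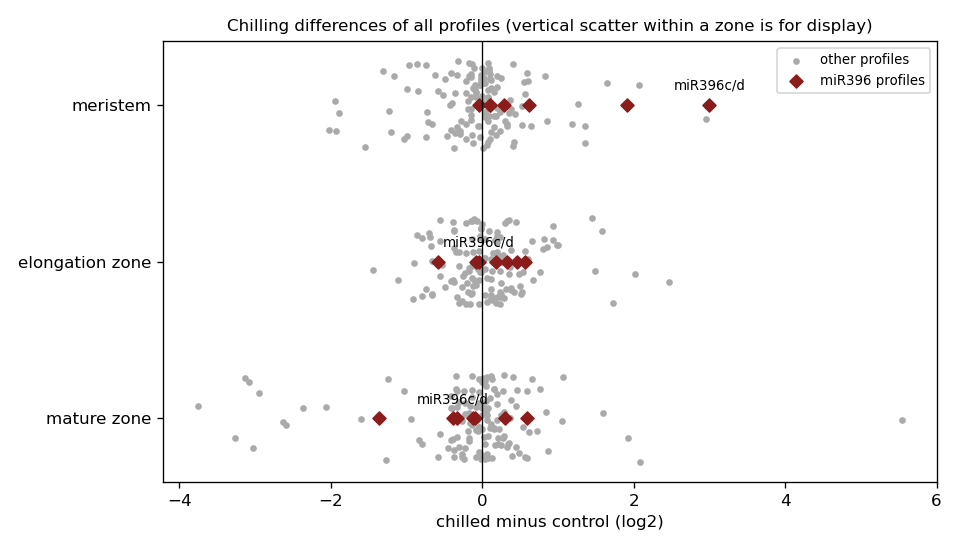
Difference between chilled and control leaves (log2) for all 147 profiles in each zone, with the 7 miR396 profiles as diamonds and the other profiles as grey points. In the meristem miR396c/d lies at 3.00, the largest difference of that zone, with a grey point (miR398a-5p) close by at 2.96. In the elongation and mature zones miR396c/d lies at -0.05 and -0.39.

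Whether chilling acted unequally in the zones was tested with interaction contrasts. For miR396c/d the chilling effect was 3.00 in the meristem, -0.05 in the elongation zone and -0.39 in the mature zone. Its averages in the latter 2 zones ran from 11.26 to 11.80, close to the highest average of the table (12.65). Whether a rise of 3.00 could register there was not tested. Mature zone minus meristem gave a contrast of -3.39 (SE 0.83, adjusted p = 0.0188), called for 5.44% of all profiles as lower and 2.04% as higher. It passed under 10 of 12 alternatives. It did not pass with the recovered SD enlarged 1.165 times (adjusted p = 0.0586), nor with medians over probe sets subtracted, where the contrast was -1.12. The contrast of the elongation zone with the meristem was -3.05 (SE 0.83, 95% interval from -4.84 to -1.26), the largest of the table. Its adjusted p was 0.294 (unadjusted 0.00258), and 0% of profiles were called in that contrast under limma. With a joint adjustment over the 12 comparisons it passed (adjusted p = 0.0124). The joint test over both contrasts passed for miR396c/d (adjusted p = 0.0301), as it did for 6.80% of all profiles.

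The other 6 profiles were not called in any interaction contrast under limma. In each of the 3 contrasts 2 of them had an unadjusted p under 0.05, but not always the same 2. They were miR396g-5p/h and miR396e-3p in both contrasts with the elongation zone. In mature zone against meristem they were miR396g-3p and miR396a/b-3p. MiR396e-3p had chilling effects of -0.58 in the elongation zone and 0.59 in the mature zone, and the contrast between these effects was 1.17 (SE 0.39, adjusted p = 0.0897). For miR396g-5p/h the contrast between the same zones was -0.67 (SE 0.20, adjusted p = 0.0601), with effects of 0.57 and -0.10. For that contrast 3.4% of all profiles were called. MiR396a/b-3p had effects of 1.91 in the meristem and -1.37 in the mature zone, which differed by -3.28 (SE 1.39, adjusted p = 0.222), and by -0.54 with quantile normalization and -1.01 with medians over probe sets subtracted. With medians over probe sets subtracted, 6 of the 7 profiles were called as higher for mature against elongation zone and 5 for mature zone against meristem. Under this scaling 190 and 194 of all probe sets were called as higher in these contrasts, and 0 as lower in either.

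Along the control leaf, from dividing to expanding tissue, 4 of 7 miR396 profiles rose and none fell under limma, against 24.5% of all profiles called as higher and 11.6% as lower. The same 4 of 7 had an unadjusted p under 0.05. MiR396c/d rose by 7.61 (SE 0.59, adjusted p = 2.86e-07), a 195-fold higher signal and the largest difference of the 147 profiles. MiR396a/b-3p rose by 3.59 (SE 0.98, adjusted p = 0.0112). MiR396a/b-5p rose by 1.12 (SE 0.29, adjusted p = 0.00729) and miR396g-5p/h by 0.82 (SE 0.14, adjusted p = 0.000298). The 4 rises kept their direction under every scaling tried, and that of miR396a/b-5p was 0.50 and no longer called with quantile normalization (adjusted p = 0.156). Not called were miR396e/f-5p at 0.34, miR396g-3p at -0.16 and miR396e-3p at 0.25, which was at -0.14 with quantile normalization.

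From the elongation to the mature zone of control leaves, none of the 7 profiles rose under limma and 3 fell, against 7.48% of all profiles called as higher and 46.3% as lower. An unadjusted p under 0.05 gave the same count of 3. This balance turned with the scaling: either subtraction of medians gave 4 profiles higher and 0 lower, and quantile normalization 3 higher and 2 lower. Over all probe sets 17 were called as higher and 96 as lower as deposited, 111 and 25 with medians over probe sets subtracted, 128 and 18 with medians over distinct profiles, and 40 and 32 with quantile normalization. MiR396g-3p fell by 1.39 (SE 0.29, adjusted p = 0.00214), was not called with medians over probe sets subtracted (-0.105) and was above 0 with medians over distinct profiles subtracted (0.37). MiR396e-3p fell by 1.30 (SE 0.27, adjusted p = 0.00232), stood at -0.015 and was not called with medians over probe sets subtracted (adjusted p = 0.959), and was above 0 with medians over distinct profiles (0.46). MiR396g-5p/h fell by 0.52 (SE 0.14, adjusted p = 0.00830), but it was higher by 0.79 with quantile normalization and by 0.77 and 1.24 with the subtractions of medians. The median change over all probe sets in this comparison was -0.58. The fall of miR396g-5p/h was smaller than this median, and miR396c/d, at a difference of 0.49 (SE 0.59, adjusted p = 0.501), lay above it. With medians over probe sets or over distinct profiles subtracted, miR396c/d was called as higher in this step, at 1.775 and 2.25 (adjusted p = 0.0174 and 0.00355). MiR396e/f-5p, at 0.17 as deposited, was called as higher under all 3 scalings (0.88, 1.455 and 1.93).

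Over the whole span from meristem to mature tissue of control leaves, 3 profiles rose and 2 fell, against 14.3% and 39.5% of all profiles. MiR396c/d rose by 8.10 (SE 0.59, adjusted p = 4.77e-08), miR396a/b-3p by 2.73 (SE 0.98, adjusted p = 0.0271) and miR396e/f-5p by 0.51 (SE 0.18, adjusted p = 0.0272). Of these, miR396a/b-3p and miR396e/f-5p were no longer called with the enlarged SD (adjusted p = 0.0582 and 0.0583) or the Tukey test. MiR396g-3p fell by 1.55 (adjusted p = 0.000527) but stood at -0.135 with medians over probe sets and at 0.10 with medians over distinct profiles subtracted. MiR396e-3p fell by 1.05 (adjusted p = 0.00486) but stood at 0.37 and 0.60 with medians over probe sets and over distinct profiles subtracted. The 5p profiles miR396a/b-5p (0.69, adjusted p = 0.0504) and miR396g-5p/h (0.30, adjusted p = 0.0746) were not called as deposited, but both were called as higher under all 3 scalings. MiR396a/b-5p was then at 2.36 with quantile normalization and at 2.105 and 2.34 with medians over probe sets and over distinct profiles subtracted, and miR396g-5p/h at 1.26, 1.715 and 1.95 in the same order. As deposited, these profiles averaged 1.36 and 1.15 in the control meristem and 2.05 and 1.45 in the control mature zone. The lowest average of the table was 0.59. Between these zones the group median over probe sets fell from 6 to 4.585, and whether such low signals are background was not tested. Under either subtraction of medians 5 of the 7 profiles were called as higher and 0 as lower, and with quantile normalization 5 and 2. Among all probe sets 44 were called as higher and 89 as lower as deposited, and 77 and 73 with quantile normalization. These counts were 145 and 40 with medians over probe sets subtracted, and 150 and 37 with medians over distinct profiles.

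In chilled leaves the first step of the gradient was present again. From the meristem to the elongation zone 4 of 7 profiles rose and 1 fell, against 29.9% of all profiles called as higher and 15% as lower. MiR396c/d rose by 4.56 (SE 0.59, adjusted p = 2.92e-05), a 23.6-fold higher signal. MiR396a/b-5p rose by 1.63 (SE 0.29, adjusted p = 0.000297), miR396g-5p/h by 1.29 (SE 0.14, adjusted p = 6.23e-06) and miR396e/f-5p by 0.57 (SE 0.18, adjusted p = 0.0168). MiR396g-3p fell by 0.86 (SE 0.29, adjusted p = 0.0213) and was not called by the Tukey test. These 5 directions were the same under the 3 scalings, though miR396e/f-5p stood at 0.02 with medians over distinct profiles subtracted. MiR396a/b-5p and miR396e/f-5p were not called with quantile normalization (adjusted p = 0.0537 and 0.0986). MiR396a/b-3p, with its wide error, differed by 1.86 (SE 0.98, adjusted p = 0.126). MiR396e-3p, at -0.61 and not called as deposited (adjusted p = 0.0741), was called as lower with quantile normalization (-0.78) and with medians over distinct profiles subtracted (-1.16).

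From the elongation to the mature zone of chilled leaves 4 of 7 profiles fell and none rose under limma, against 58.5% and 12.9% of all profiles, and the same 4 had an unadjusted p under 0.05. This balance turned with the scaling as well. With medians over probe sets subtracted 6 of the 7 were called as higher and 0 as lower, with medians over distinct profiles 5 and 0, and with quantile normalization 2 and 1. Over all probe sets the calls were 23 higher and 125 lower as deposited, against 186 and 8, 145 and 20, and 52 and 39 in that order. MiR396g-3p fell by 1.65 (SE 0.29, adjusted p = 0.000291) and was above 0 with either subtraction of medians (2.02 and 0.58). MiR396g-5p/h fell by 1.19 (SE 0.14, adjusted p = 8.81e-06) and miR396a/b-5p by 1.01 (SE 0.29, adjusted p = 0.00851), and both were above 0 under all 3 scalings. MiR396a/b-3p fell by 2.41 (SE 0.98, adjusted p = 0.0433) and was above 0 with quantile normalization (0.84) and with medians over probe sets subtracted (1.26). Its call held under 6 of 13 alternatives. The median change over all probe sets was -0.81. MiR396c/d differed by 0.15 (SE 0.59, adjusted p = 0.855) as deposited and by 0.57 with quantile normalization. It was called as higher, at 3.82 and 2.38 (adjusted p = 2.50e-05 and 0.00216), with medians over probe sets and over distinct profiles subtracted. MiR396e/f-5p, at 0.14 as deposited, was called as higher under all 3 scalings (2.19, 3.81 and 2.37).

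Between the meristem and the mature zone of chilled leaves 2 profiles rose and 2 fell, against 25.2% and 46.9% of all profiles. MiR396c/d rose by 4.71 (SE 0.59, adjusted p = 1.00e-05) and miR396e/f-5p by 0.71 (SE 0.18, adjusted p = 0.00343). With quantile normalization and the subtractions of medians over probe sets and over distinct profiles, miR396c/d was at 5.69, 8.395 and 6.39, and miR396e/f-5p at 2.56, 4.395 and 2.39. MiR396a/b-5p and miR396g-5p/h, at 0.62 and 0.10 and not called as deposited, were called as higher under all 3 scalings. As deposited, they averaged 1.31 and 1.25 in the chilled meristem and 1.93 and 1.35 in the chilled mature zone. The lowest average of the table was 0.59. Between these zones the group median over probe sets fell from 5.865 to 2.18, and whether such low signals are background was not tested. The count of profiles higher and lower was 5 and 2 with quantile normalization, 7 and 0 with medians over probe sets, and 5 and 1 with medians over distinct profiles. Among all probe sets these counts were 91 and 86, 188 and 20, and 142 and 39 in that order, against 75 and 102 as deposited. MiR396g-3p fell by 2.51 (SE 0.29, adjusted p = 4.22e-06) and was at 1.18 with medians over probe sets subtracted. MiR396e-3p fell by 0.74 (SE 0.27, adjusted p = 0.0242) and was at 2.94 and 0.94 with the subtractions of medians, and its call held in the same direction under 7 of 13 alternatives. Comparisons of zones within a treatment share groups with each other and with the chilling comparisons, so their counts are not independent of one another.

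**Figure D4:**
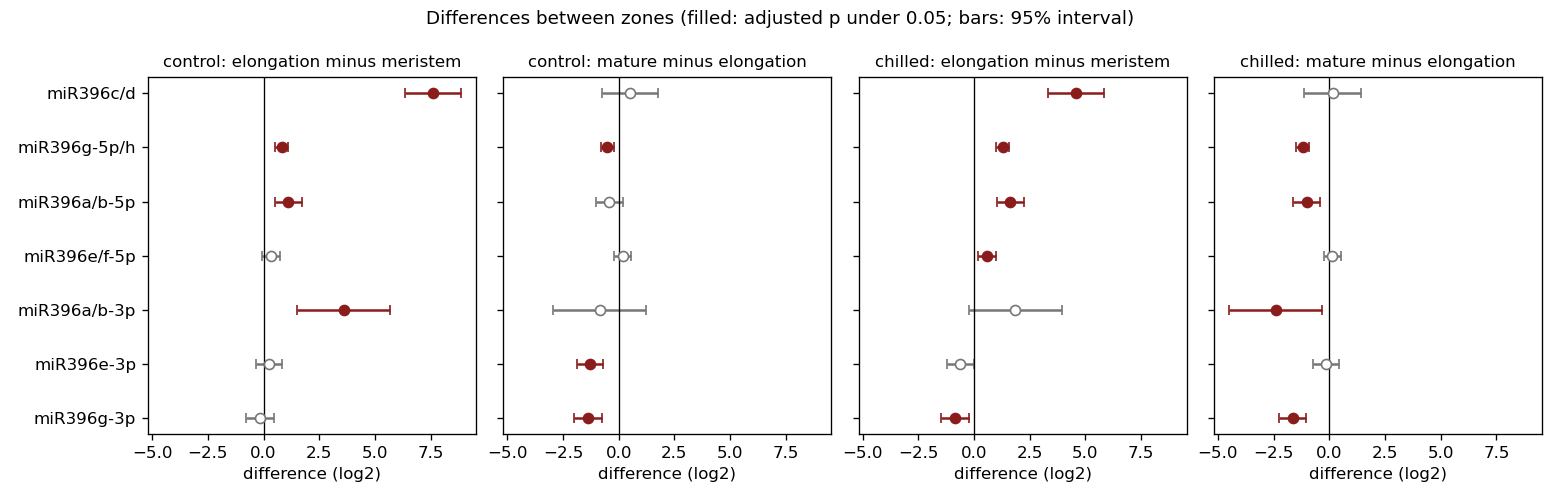
Differences between successive zones (log2) in control and chilled leaves for the 7 miR396 profiles, with 95% intervals, filled where the adjusted p was under 0.05. MiR396c/d lies at 7.61 and 4.56 for elongation zone minus meristem and at 0.49 and 0.15 for mature minus elongation zone.

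**Figure D5:**
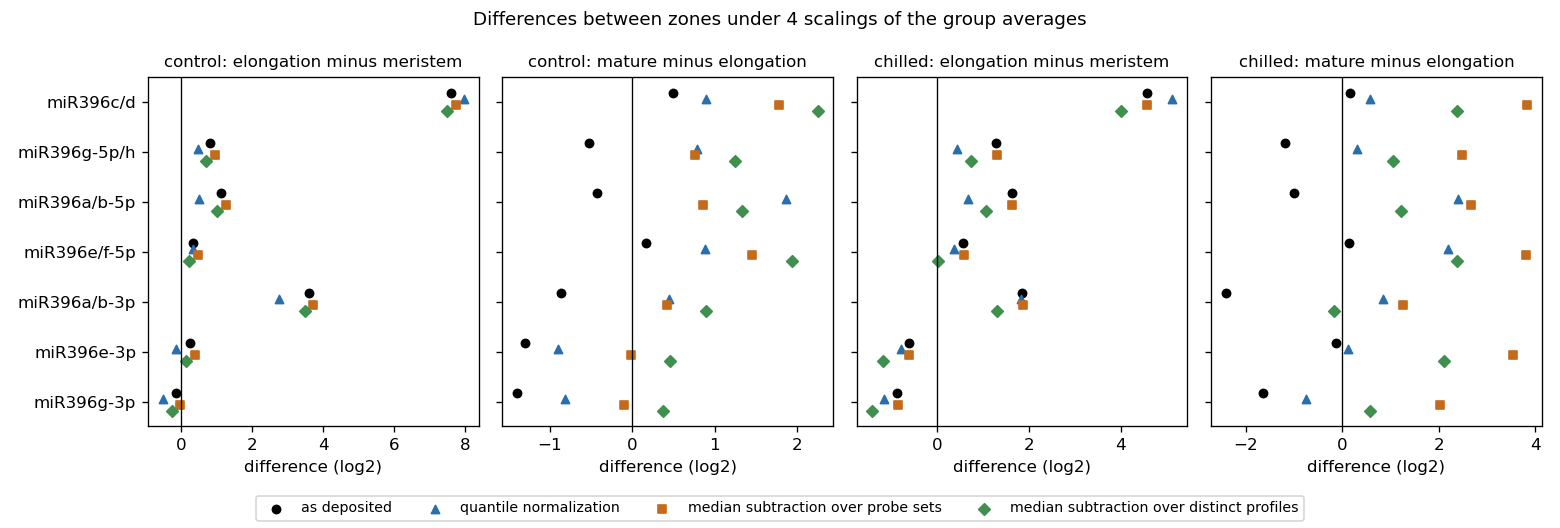
The same differences (log2) with the averages as deposited, after quantile normalization and after subtraction of the group medians over probe sets or over distinct profiles. For mature minus elongation zone in chilled leaves 5 of the 7 profiles lie below 0 as deposited, against 1, 0 and 1 under the other scalings, whereas miR396c/d lies between 4.01 and 5.12 for elongation zone minus meristem in chilled leaves.

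The shapes of the profiles were compared by Pearson's r over the 6 group averages, which share their arrays. MiR396c/d resembled miR396e/f-5p (r = 0.852), miR396a/b-5p and miR396a/b-3p (0.765 each) more than miR396g-5p/h (0.568). MiR396g-5p/h and miR396a/b-5p followed each other most closely (0.945). The 2 profiles miR396g-3p and miR396e-3p resembled each other (0.818), and both ran against miR396c/d (-0.616 and -0.515).

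Outside the family 61 profiles had a range of at least 2 log2 units. Among these, miR396c/d was most like the guide arms of miR167, a family that targets auxin response factors. The r was 0.960 with the profile of miR167e-5p to miR167j-5p, whose averages were 7.50, 10.45 and 11.49 along the control leaf and 7.91, 10.98 and 11.54 along the chilled leaf. It was 0.959 with the profile of miR167a-5p to miR167d-5p. The third was the profile of miR408a and miR408b-3p, whose family targets copper proteins (0.904), with 3.92 and 5.28 in the control and chilled meristem. The meristem averages of the miR167 profiles differed between treatments by less than those of miR396c/d (7.50 and 7.91, and 7.62 and 7.68). The most opposed profile was miR159a-5p (r = -0.946), at 4.81, 1.89 and 1.22 along the control leaf and 4.99, 1.62 and 1.34 along the chilled leaf.

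MiR319 targets TCP transcription factors, which in Arabidopsis raise the transcription of MIR396 genes. TCP transcripts were not measured here, and a link between miR319 and miR396 was not tested. The 4 probe sets of miR319 share 1 profile, miR319a-3p to miR319d-3p. Its averages were 10.47, 5.59 and 5.34 along the control leaf and 9.75, 4.93 and 1.59 along the chilled leaf. It was highest in the meristems, where miR396c/d had its lowest averages. From the control meristem to the elongation zone the miR319 profile fell by 4.88 (SE 0.73, adjusted p = 0.000117), and miR396c/d rose by 7.61. In the chilled against the control meristem the miR319 profile differed by -0.72 (SE 0.73, adjusted p = 0.777), and in the elongation zone by -0.66 (adjusted p = 0.764). In the mature zone it fell by 3.75 under chilling as deposited (SE 0.73, adjusted p = 0.00222 by limma's moderated test). This call depended on the scaling. With medians over probe sets subtracted, 0 probe sets of the table were called as lower in this comparison, the miR319 profile included. Guide arms of other leaf growth families (miR156, miR164, miR166, miR167, miR172 and miR390) made up 16 profiles. Of these, 9 rose and 2 fell from the control meristem to the elongation zone, against 24.5% and 11.6% of all profiles. The median difference of the 16 was 0.60, and that of the 7 miR396 profiles was 0.82. None of the 16 was called in the chilled meristem under limma and 0 had an unadjusted p under 0.05, where their median difference was -0.25.

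All 8 miR396 genes named in the table, MIR396a to MIR396h, have a RefSeq entry in assembly Zm-B73-REFERENCE-NAM-5.0. The table names no build, and the entries served for neighbours alone. MIR396a lies next to MIR396e and MIR396f next to MIR396g, with 0 annotated genes between them, and MIR396b overlaps MIR396h. MIR396c and MIR396d have no family member on their chromosomes, and each lies within the span of an annotated protein-coding gene. Pairs of neighbours did not share a profile in the table, while miRNAs from different loci did: miR396a-5p had the values of miR396b-5p, and miR396g-5p those of miR396h. Mature miR396 sequences are near-identical as background knowledge, and cross-hybridization between their probes was not tested.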

How the data were processed

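Total RNA (10 µg per sample) was labelled with the FlashTag Biotin HSR kit after poly(A) tailing, per the labels' protocols, and Affymetrix Expression Console is named in the submitters' processing notes. The sources used here do not give the background correction, the scaling between arrays or the probe design. The authors deposited 6 bi-weight average log2 signals per probe set, 1 for each group, per the file headers. Beside these the authors deposited, for each probe set, a p-value from an ANOVA of the conditions and its FDR counterpart. The deposited ANOVA p-values did not exceed 0.040982, so the table is preselected, and adjusted p-values do not strictly hold their rate.

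Single arrays were needed for the intended limma fit, which could not be made. The residual SD was recovered by converting each p-value to its F (5 and 12 degrees of freedom) and dividing the spread of the 6 averages by that F. Variances were moderated with squeezeVar of limma 3.58.1 in R 4.3.3 (prior degrees of freedom 1.94), and contrasts were tested two-sided with Benjamini-Hochberg adjustment over 228 probe sets. Equal spread in all groups was assumed. Simulated data for chilled against control meristem (3000 miRNAs with normal noise, 2779 kept) tested this step. Of 1-unit, 2-unit and 3-unit log2 changes 57.2%, 92.9% and 98.5% were called. Of the calls 6.51% were false, against 3.17% for a fit to the simulated single arrays. With heavy-tailed noise 65.45%, 91.4% and 94.4% were called, and 5.56% of calls were false. The share of changed miRNAs was set beforehand, so these rates need not hold for the real data. With normal noise the ratio of recovered to fitted SD lay between 0.879 and 1.165 at its 5th and 95th percentiles. Array number, 3 per group, limits the precision, and arrays give no read depth.

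Every miR396 row is named. Profiles outside the family were named as the 3 most like and the 1 most opposed by Pearson's r over the 6 averages, among those with a range of at least 2 log2 units. The members and lists were chosen with earlier results of these data known. The 13 alternatives were 3 scalings of the groups, no moderation, a trended robust prior, 1 probe set per profile, joint adjustment, 10 residual degrees of freedom, the upper edge of the rounded ANOVA p-value, an enlarged SD, low probe sets left out, an unadjusted p-value with a 2-fold minimum and the Tukey test.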

Additional observations from a re-analysis of the deposited data

Results flagged for a closer look

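The chilling effect on miR396c/d differed between leaf zones by the interaction test. It was 3.00 log2 units in the meristem and -0.39 in the mature zone, a contrast of -3.39 (SE 0.83, adjusted p = 0.0188 by limma's moderated test). It passed under 10 of 12 alternatives, and not with the recovered SD enlarged (adjusted p = 0.0586) or with medians over probe sets subtracted (-1.12, adjusted p = 0.214). No single-array values were at hand, so how many arrays show this direction cannot be given, and no group could be examined for an array far from the others. The mature zone averages of miR396c/d (11.80 and 11.41) were close to the highest average of the table (12.65). Whether a rise of 3.00 could register there was not tested.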

How the results depend on the processing

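Of 84 differences (7 miR396 profiles in 12 comparisons), 1059 values were computed under 13 alternatives: 908 kept direction and side of the threshold, 54 newly passed, 30 no longer passed and 67 changed sign, all 67 under a rescaling of the groups. Of the 67, 21 had been called and 12 of these were called in both directions. The 5 calls of miR396c/d outside the interaction contrasts held under all 13. With low probe sets left out, 41 profiles were dropped, miR396e/f-5p among them, which has no value there. No paired analysis was possible because the deposited columns are group averages without replicate numbers, and leaving out a replicate was not run for the same reason.

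Counts of called miR396 profiles that moved by more than 1.5 times were these. Chilling in the elongation zone went from 0 to 1 with medians over probe sets subtracted, no moderation, a trended prior, 1 probe set per profile, joint adjustment, 10 residual degrees of freedom or the Tukey test. Chilling in the mature zone went from 0 to 2 with quantile normalization and 6 with medians over probe sets. In control leaves, mature against elongation zone went from 3 to 5 with quantile normalization, and mature zone against meristem from 5 to 3 with the enlarged SD or the Tukey test. In chilled leaves, elongation zone against meristem went from 5 to 3 with the 2-fold rule or the Tukey test, and mature zone against meristem from 4 to 7 with quantile normalization or medians over probe sets and to 2 with the 2-fold rule. The interaction of elongation zone with meristem went from 0 to 1 with joint adjustment or the 2-fold rule. That of mature with elongation zone went from 0 to 6 with medians over probe sets, 2 with joint adjustment and 1 with 6 others (quantile normalization, medians over profiles, no moderation, 1 probe set per profile, 10 degrees of freedom, the 2-fold rule). That of mature zone with meristem went from 1 to 5 with medians over probe sets, 2 with quantile normalization or the 2-fold rule and 0 with the enlarged SD. The other moves were within 1.5 times. Control elongation zone against meristem (4 as reported) ran from 3 to 5 and chilled mature against elongation zone (4) from 3 to 6. Control mature zone against meristem (5) also reached 7 with quantile normalization and 6 with no moderation, the trended prior or 10 degrees of freedom. The cause was not tested.

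Differences that changed sign are given per scaling. With quantile normalization they were 0.0533 for miR396c/d, chilling in the elongation zone; 0.535 and 0.6258 for miR396a/b-5p and miR396a/b-3p, chilling in the mature zone; 0.7883, 1.8583 and 0.4442 for miR396g-5p/h, miR396a/b-5p and miR396a/b-3p, control mature against elongation zone. The chilled values of that step were 0.30, 2.3933 and 0.835 for the same profiles and 0.1083 for miR396e-3p. Further values were -0.1417 for miR396e-3p, control elongation zone against meristem, and 2.6775 for miR396a/b-3p, chilled mature zone against meristem. Among interactions they were -0.0342 for miR396g-5p/h (elongation zone with meristem), 0.7192 for miR396a/b-5p (mature zone with meristem), and 0.0575, 0.535, 1.3025 and 0.3908 for miR396g-3p, miR396a/b-5p, miR396e/f-5p and miR396a/b-3p (mature with elongation zone).

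With medians over probe sets subtracted, chilling in the mature zone gave 2.015 for miR396c/d, 2.305 for miR396g-5p/h, 2.065 for miR396g-3p, 2.285 for miR396a/b-5p and 1.035 for miR396a/b-3p, and chilling in the meristem 0.085 for miR396a/b-5p. Control mature against elongation zone gave 0.765, 0.855 and 0.425 for miR396g-5p/h, miR396a/b-5p and miR396a/b-3p, and the chilled step 2.48, 2.66 and 1.26 for these, 2.02 for miR396g-3p and 3.54 for miR396e-3p. Mature zone against meristem gave 0.365 for miR396e-3p in control leaves, and 1.175, 2.945 and 3.135 for miR396g-3p, miR396e-3p and miR396a/b-3p in chilled leaves. The interaction of mature with elongation zone gave 2.045, 1.715, 2.125, 1.805, 2.355 and 0.835 for miR396c/d, miR396g-5p/h, miR396g-3p, miR396a/b-5p, miR396e/f-5p and miR396a/b-3p, and that of mature zone with meristem 2.07, 1.31 and 2.20 for miR396g-5p/h, miR396g-3p and miR396a/b-5p.

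With medians over distinct profiles subtracted, chilling gave 0.05 for miR396a/b-5p in the meristem, -0.01 and -0.16 for miR396e/f-5p and miR396a/b-3p in the elongation zone, and 0.03 and 0.01 for miR396g-5p/h and miR396a/b-5p in the mature zone. Control mature against elongation zone gave 1.24, 0.37, 1.33, 0.46 and 0.90 for miR396g-5p/h, miR396g-3p, miR396a/b-5p, miR396e-3p and miR396a/b-3p, and the chilled step 1.04, 0.58, 1.22 and 2.10 for the first 4. Mature zone against meristem gave 0.10 and 0.60 for miR396g-3p and miR396e-3p in control leaves, and 0.94 and 1.13 for miR396e-3p and miR396a/b-3p in chilled leaves. Interactions gave -0.21 for miR396e/f-5p (elongation zone with meristem) and 0.13, 0.21 and 0.44 for miR396c/d, miR396g-3p and miR396e/f-5p (mature with elongation zone).

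Over all 228 probe sets the counts of calls ranged widely as well. Under the alternatives they ran from 2 to 26 (19 as reported) for chilling in the meristem, 1 to 20 (2) in the elongation zone and 21 to 204 (32) in the mature zone. In control leaves they ran from 52 to 113 (106), 72 to 146 (113) and 81 to 187 (133) for elongation zone against meristem, mature against elongation zone and mature zone against meristem, and in chilled leaves from 66 to 135 (118), 91 to 194 (148) and 109 to 208 (177). For the interactions in the same order they ran from 0 to 7 (0), 0 to 190 (5) and 11 to 194 (19).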

Other observations

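Both arms of a precursor were listed for miR396a, miR396e and miR396g, and the gap between their signals (3p minus 5p, log2) was followed over the groups. Probes of the arms can differ in affinity, so neither the sign nor the size of a gap says which arm was more abundant. For miR396e the gap was 9.94, 9.85 and 8.38 from meristem to mature zone under control nights and 10.12, 8.94 and 8.67 under chilled nights. For miR396a it was 0.79, 3.26 and 2.83 along the control leaf and 2.75, 2.98 and 1.58 along the chilled leaf. For miR396g, whose arms both lay near the bottom of the scale (0.72 to 3.23), it was 1.46, 0.48 and -0.39 along the control leaf and 1.98, -0.17 and -0.63 along the chilled leaf. Changes of the gaps between groups were not tested.

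The profiles most like the other members were looked up in the same way. MiR396g-5p/h was most like 3p arms of miR156, with r over the 6 averages of 0.973 for miR156i-3p, 0.970 for miR156e-3p and 0.918 for miR156l-3p, and miR156e-3p had averages of 2.11, 4.15 and 1.81 along the control leaf and 1.65, 5.73 and 2.20 along the chilled leaf. MiR396a/b-5p was most like miR167e-3p (r = 0.950), miR156i-3p (0.935) and miR399f-5p (0.923). MiR396e/f-5p was most like the profile of miR167e-5p to miR167j-5p (0.924), as miR396c/d was, and most opposed to that of miR319a-3p to miR319d-3p (-0.962). Among the 3p profiles, miR396g-3p was most like miR394a-3p and miR394b-3p (0.972), miR396e-3p like miR166j-3p, miR166k-3p and miR166n-3p (0.838), and miR396a/b-3p like miR399f-5p (0.913).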
